A study of Mus musculus with 20 samples.

Results

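The genes examined were 36 genes of the tricarboxylic acid (TCA) cycle and of glutamine metabolism, and the measurement was the accessibility of the chromatin at and around them in mouse LSK cells. A peak was counted for a gene when its centre lay inside that gene, or, outside all genes, when that gene had the nearest boundary among the mm10 protein-coding genes, with the shortest taken where genes overlapped. This rule gave 230 of the 125343 peaks to the 36 genes, and every gene had at least 1 peak. A gene name therefore marks the neighbour of a peak and does not show which gene the peak acts on. LSK cells (lineage-negative, Kit-positive, Sca1-positive bone marrow cells) are the compartment that holds the blood stem cells and multipotent progenitors, and open chromatin was read out with ATAC-seq, an assay that inserts sequencing adapters into DNA that a transposase can reach.

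There were 20 libraries from 5 genotypes on the C57Bl/6J strain, with 4 libraries for each genotype, and each library was a pool of 2 mice aged 3 to 4 months. Idh2 R172K mice carried 1 Idh2 LSL-R172K allele, Idh1 R132H mice 1 Idh1 LSL-R132H allele and Idh2 R140Q mice 1 Idh2 LSL-R140Q allele, each with Vav-Cre, a recombinase expressed in blood-forming cells that removes the stop cassette in front of the mutant allele. Tet2 KO mice were Tet2-/- and their label names no Cre. WT mice carried Vav-Cre and no mutant allele, so Vav-Cre is shared by the Idh genotypes and WT, while for Tet2 KO the labels do not give it.

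The TCA cycle oxidizes acetyl groups in mitochondria and supplies citrate, 2-oxoglutarate and oxaloacetate for synthesis. Glutamine enters it as glutamate, which glutamate dehydrogenase and the transaminases convert to 2-oxoglutarate. Mutant IDH1 and IDH2 enzymes reduce 2-oxoglutarate to 2-hydroxyglutarate, and TET2 is an enzyme that needs 2-oxoglutarate to oxidize 5-methylcytosine in DNA. The members are genes of enzymes and carriers of these and adjoining pathways, and only some of them make, move or use 2-oxoglutarate itself.

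The windows around the transcription starts of 5 members are given because the start-site results rest on them. Each window covers 250 bases before the start and 50 after it, was taken from RefSeq for GRCm38.p6, the assembly that mm10 represents, and reads 5′ to 3′ along the gene. CpG dinucleotides, the sites of DNA methylation, are in capitals. Pck2 and Acly had large rises among the start-site peaks in Idh2 R172K, Cs and Glud1 are the entry enzymes for acetyl groups and for glutamate, and Suclg1 had the lowest log2 fold change at its start.
Pck2: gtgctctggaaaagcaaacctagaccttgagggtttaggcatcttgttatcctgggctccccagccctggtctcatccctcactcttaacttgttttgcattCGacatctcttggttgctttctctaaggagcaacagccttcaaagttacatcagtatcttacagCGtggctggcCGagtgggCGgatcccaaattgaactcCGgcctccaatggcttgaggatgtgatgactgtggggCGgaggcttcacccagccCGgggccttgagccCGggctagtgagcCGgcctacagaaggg
Acly: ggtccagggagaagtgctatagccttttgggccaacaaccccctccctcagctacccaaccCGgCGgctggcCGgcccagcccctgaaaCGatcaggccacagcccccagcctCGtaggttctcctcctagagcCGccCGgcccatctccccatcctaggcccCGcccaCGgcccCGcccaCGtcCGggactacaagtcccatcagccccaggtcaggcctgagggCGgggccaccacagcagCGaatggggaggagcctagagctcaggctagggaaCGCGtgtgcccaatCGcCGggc
Cs: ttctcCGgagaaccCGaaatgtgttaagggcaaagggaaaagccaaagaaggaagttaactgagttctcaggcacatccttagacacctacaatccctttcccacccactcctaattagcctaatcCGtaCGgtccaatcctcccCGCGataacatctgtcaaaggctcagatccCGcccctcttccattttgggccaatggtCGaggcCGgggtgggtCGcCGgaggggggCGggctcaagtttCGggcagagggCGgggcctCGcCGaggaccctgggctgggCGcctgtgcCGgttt
Glud1: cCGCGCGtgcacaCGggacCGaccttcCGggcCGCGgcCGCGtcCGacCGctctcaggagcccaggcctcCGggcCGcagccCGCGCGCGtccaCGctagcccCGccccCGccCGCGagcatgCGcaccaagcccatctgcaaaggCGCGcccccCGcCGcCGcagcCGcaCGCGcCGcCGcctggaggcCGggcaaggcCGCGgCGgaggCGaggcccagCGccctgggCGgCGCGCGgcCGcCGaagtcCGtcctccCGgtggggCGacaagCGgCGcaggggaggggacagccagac
Suclg1: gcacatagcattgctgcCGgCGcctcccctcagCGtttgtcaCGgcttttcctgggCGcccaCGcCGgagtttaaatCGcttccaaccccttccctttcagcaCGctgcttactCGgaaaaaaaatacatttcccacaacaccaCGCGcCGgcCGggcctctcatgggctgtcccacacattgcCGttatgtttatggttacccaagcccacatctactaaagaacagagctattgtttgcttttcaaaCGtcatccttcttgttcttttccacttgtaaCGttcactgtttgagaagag
They lie at chr14:55540016-55540315 on the plus strand for Pck2, chr11:100527951-100528250 on the minus strand for Acly and chr10:128337477-128337776 on the plus strand for Cs. Those of Glud1 and Suclg1 lie at chr14:34310477-34310776 and chr6:73248255-73248554, both on the plus strand. The Glud1 window holds 51 CpG dinucleotides in 81% G and C, and the other 4 hold 9 in Pck2, 18 in Acly, 18 in Cs and 17 in Suclg1. Of the 36 members, 31 had such a window in RefSeq, 41 windows in all since some genes have several starts. The member windows held a median of 18 CpG dinucleotides (4 to 51) and 60% G and C, against 13 and 56.3% in the 21263 windows of all protein-coding genes.

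The windows were searched on both strands for 8 motifs, and a match is only a description of letters. The SP/KLF motif GGGCGGGG stood in 34.1% of the member windows and 23.6% of all windows. It stood at bases 161, 173 and 224 of the Acly window, at base 254 of the Cs window and at bases 101 and 107 of the Glud1 window, where the 2 matches overlap. The NRF1 motif GCGCATGC stood in 9.76% of member windows, those of Glud1, Ogdh and Sdhb, against 3.52% of all windows. The CRE motif TGACGTCA stood in 9.76%, those of Mdh2 and Ogdh, against 2.23%, and the E-box CACGTG in 12.2%, those of Ogdh, Pcx and Slc25a1, against 7.84%. The ETS motif CCGGAAGT was found in 2.44% of member windows against 5.15% of all, and the RUNX motif TGTGGTT in 4.88% against 4.71%. The GATA motif AGATAAG and the amino acid response motif TGATGNAAT were in none of the member windows, against 2.64% and 0.8% of all windows. Ogdh has several overlapping windows, which count separately in these shares.

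The libraries held 10.5 to 27.81 M peak counts (M stands for 1e6) in the Idh2 R172K genotype and 21 to 25.63 M in the Tet2 KO genotype. The depth was 17.44 to 27.89 M for Idh1 R132H, 16.76 to 27.74 M for Idh2 R140Q and 14.51 to 26 M for WT. Levels are given as CPM, counts per 1e6 with TMM-scaled library sizes. As a check of the label, the Kit and Flt3 start sites stood at 64.8 and 77.7 CPM in WT, while the highest of 6 peaks of Ly6a, which encodes Sca1, was at 3.14 CPM. The start sites of Hlf, Cd34, Gata2, Mecom, Procr and Slamf1 stood at 27.9, 24.9, 19.5, 10.2, 7.05 and 2.69 CPM in WT. Among markers of mature blood cells, Cd79a, Cd3g, Cd8a, Ly6g, Hba-a1 and Hbb-bs had no peak, but other genes of those lists did. Their highest peaks in WT reached 49.8 CPM at Cd3d, 49.6 CPM at Csf1r, 47.6 CPM at Klf1, 41.7 CPM at Klrb1c, 30.4 CPM at Itgam and 25.6 CPM at Pax5, so the label was not settled by these peaks. The summed CPM of the LSK markers was 1237 to 1317 in Idh2 R172K and 1205 to 1267 in WT. Of the 193 tested LSK marker peaks 49 rose and 63 fell in Idh2 R172K (median log2 fold change -0.08). Erythroid markers summed to 268 to 283 CPM in Idh2 R172K and 231 to 249 CPM in WT, with peaks for 4 of 6 genes. Of the 32 tested erythroid marker peaks, however, 6 rose and 11 fell in Idh2 R172K (median log2 fold change -0.03). B cell markers summed to 71.2 to 80.7 CPM in Idh2 R172K and 84.8 to 94.1 CPM in WT (4 of 5 genes), and stroma and endothelium markers to 263 to 271 CPM in Idh2 R172K and 282 to 307 CPM in WT (5 of 5 genes). Granulocyte and monocyte marker sums overlapped, at 198 to 224 CPM in Idh2 R172K and 208 to 238 CPM in WT (5 of 6 genes), though 4 of their 30 tested peaks rose and 17 fell in Idh2 R172K (median log2 fold change -0.30). Of the stroma and endothelium marker peaks 12 of 73 rose and 31 fell, and of the B cell marker peaks 2 of 22 rose and 7 fell. Over all tested peaks 25.1% rose and 27.9% fell in Idh2 R172K. The sums also overlapped for T and NK markers, at 207 to 209 CPM in Idh2 R172K and 204 to 217 CPM in WT (4 of 6 genes). In Tet2 KO the sums were 232 to 244 CPM for erythroid, 92.1 to 97.1 CPM for B cell and 304 to 318 CPM for stroma and endothelium markers. The part of these marker differences in the results was not tested, and in bulk libraries a smaller share of cells with an open site and less opening per cell cannot be told apart.

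By the deposited classes, 106 member peaks were intergenic, 72 intronic, 29 promoter, 13 exonic and 10 at a transcription end. Of the members, 23 had a promoter-class peak. The classes differed in level, with a median of 36.5 CPM in WT for the promoter class (0.448 to 116 CPM) and 1.97 CPM for the others. The deposited class left out many starts, so the peak over the RefSeq start was also taken for the 31 members with a window. Where several peaks lay over the starts of a member, the one with the highest mean CPM over all 20 libraries was taken. This start-site peak was of the promoter class for 19, intronic for 9 and exonic for 3. For Mdh1 and Mdh2 this peak is named for another gene, Wdpcp and Styxl1, so 29 start-site peaks belong to the members. In WT they ran from 5.33 CPM at Me3, a mitochondrial malic enzyme, to 116 CPM, with a median of 43 CPM.

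Idh2 R172K changed the chromatin around these genes in both directions. Of 226 member peaks that passed the filter on low counts, 66 rose and 50 fell against WT (edgeR quasi-likelihood test, Benjamini-Hochberg adjusted p under 0.05 over all 123908 tested peaks, as for every call below). That is 29.2% raised and 22.1% lowered, against 25.1% and 27.9% of all tested peaks, so the members' share of changed peaks lay near that of the whole set. Each library was a pool of mice, and these p-values measure the spread between libraries. The labels do not state that the pools of a genotype held different mice, so their independence is assumed. The direction split depended on the scaling, for the members and for all 123908 tested peaks. With library size alone in place of TMM 39 member peaks rose and 53 fell. Of all tested peaks 23277 rose and 38486 fell with that scaling, against 31075 and 34598 with TMM. With cyclic loess offsets, which remove trends with peak level, 53 member peaks rose and 44 fell (23.5% and 19.5%, against 26.1% and 25.3% of all peaks). In the promoter class 13 of 29 rose and 1 fell (44.8% and 3.45%, against 39.8% and 15% of all promoter-class peaks), but with cyclic loess offsets 1 rose and 3 fell, against 23.7% and 18.8%. In the other classes 53 of 197 rose and 49 fell (26.9% and 24.9%, against 23% and 29.8%). The libraries of the genotypes did not overlap at 46 of the 66 raised and 43 of the 50 lowered peaks, and at 95 of all 226, where the share over all tested peaks was 43.9%. Of the called member peaks 29 of the lowered but 10 of the raised had a log2 fold change of at least 1 in size. The raised ones include 20 start-site peaks, whose log2 fold changes reached 0.32 at most. The matching shares over all called peaks were not counted.

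The libraries also fall into sets of low and high signal at Xist peaks, with 2 libraries of each genotype in either set. Within the Xist-low libraries 12 promoter-class and 42 other member peaks rose in Idh2 R172K, and 1 and 40 fell. Over all 124394 peaks tested in that set 24042 rose and 28343 fell. Within the Xist-high libraries, which include the shallowest Idh2 R172K library, 7 and 30 rose, and 0 and 33 fell. Over all 123572 peaks tested in that set 19587 rose and 23388 fell.

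At transcription starts the change in Idh2 R172K was small and upward. Of the 29 start-site peaks 20 rose and 0 fell (69% and 0%, against 47.2% raised and 9.05% lowered of all start-site peaks tested), with log2 fold changes of -0.03 to 0.32 and a median of 0.20, beside 0.16 for all start-site peaks. All start-site peaks here means every tested peak over a start of any protein-coding gene, weak ones included. Only the highest peak was taken for each member, so these shares compare sets that were not picked alike. The summed CPM of the peaks over all 31 member starts was 1779, 1772, 1737 and 1920 in the Idh2 R172K libraries, against 1544, 1597, 1512 and 1628 in WT. All 4 Idh2 R172K libraries lay above all 4 WT libraries. In Tet2 KO the sums were 1699, 1694, 1502 and 1513, which overlap WT, with both Xist-low libraries at the high end. With cyclic loess offsets the rise was lost: 2 start-site peaks rose and 2 fell, the median was 0.05, and 23.5% of all start-site peaks rose and 15.8% fell. With library size alone 9 rose, and within the Xist-low and Xist-high libraries 18 and 9 rose. The shares over all start-site peaks with library size alone and in the Xist splits were not counted. The 2 that rose with loess offsets were Pck2 and Phgdh, so the other 18 start-site calls were lost there. Those of Fh1, Acly, Aco1, Dlst, Got1, Slc25a1 and Suclg2 were kept in the other 15 of 16 alternatives, library size alone included. Single libraries also mattered for 7 starts. The Cs call was lost without Idh2 R172K replicate 4 or WT replicate 1, the Dld call without WT replicate 3, and the Sdhd call without WT replicate 4. The Sdha call was lost without Idh2 R172K replicate 3 or 4 or WT replicate 4, and the Dlat call without Idh2 R172K replicate 1 or 3 or WT replicate 4. The Glud1 call was lost without Idh2 R172K replicate 1 or WT replicate 1 or 3, and the Pcx call without Idh2 R172K replicate 4 or WT replicate 1 or 2.

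**Figure D1:**
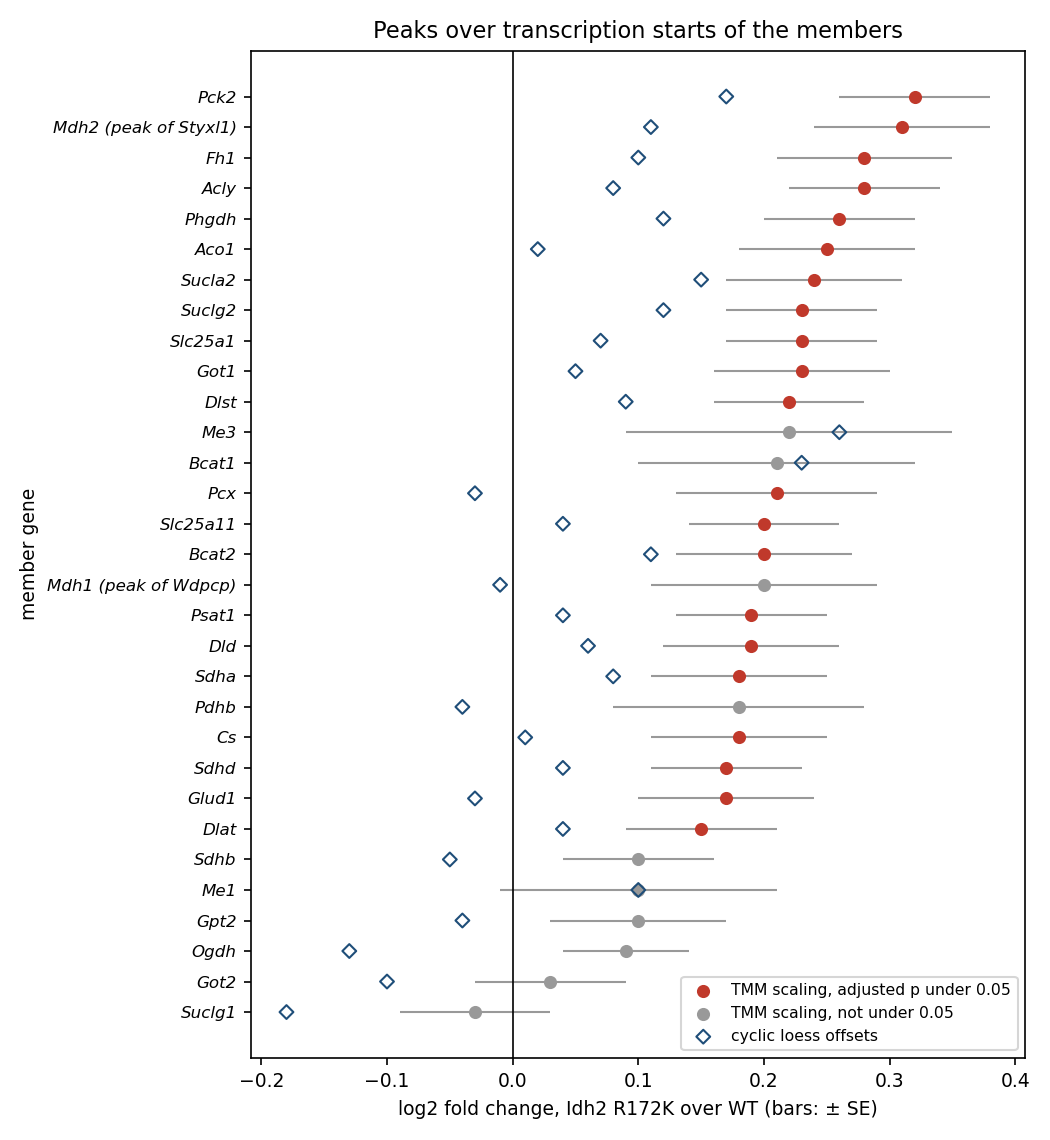
Log2 fold change of the start-site peak of each of 31 members, Idh2 R172K over WT, under TMM scaling (circles with SE, red where adjusted p is under 0.05) and with cyclic loess offsets (open diamonds). Nearly all circles lie right of 0 between -0.03 and 0.32, while the diamonds lie between -0.18 and 0.26 for the 29 peaks named for members, and the Mdh1 and Mdh2 starts are covered by peaks named for Wdpcp and Styxl1.

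Among the TCA cycle enzymes, Cs, which makes citrate from acetyl-CoA and oxaloacetate, had 65.1, 68.7, 64 and 69 CPM at its start in Idh2 R172K, against 56.8, 58.2, 56.3 and 62.8 CPM in WT. The groups did not overlap, and the log2 fold change was 0.18 ± 0.07 (SE, edgeR adjusted p = 0.019), or 0.01 with loess offsets. Fh1, the fumarase, stood at 72.7 ± 4.99 CPM in Idh2 R172K and 59.8 ± 2.92 CPM in WT (SD, n = 4 each). Its log2 fold change was 0.28 ± 0.07 (SE, edgeR adjusted p = 0.00134), or 0.10 with loess offsets. Aco1, the cytosolic aconitase, had one of the strongest starts, at 138 ± 7.25 CPM in Idh2 R172K and 116 ± 3.89 CPM in WT. The start sites of Dlst and Dld, subunits of the 2-oxoglutarate dehydrogenase complex, rose by 0.22 and 0.19 on the log2 scale. Ogdh, its first subunit, was not called at its start, with 104 ± 3.67 CPM in Idh2 R172K and 97.9 ± 3.38 CPM in WT.

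The subunits of succinyl-CoA synthetase differed at their starts. Sucla2 and Suclg2, which encode the ADP-specific and GDP-specific beta subunits, rose by 0.24 and 0.23 on the log2 scale. Suclg1, the shared alpha subunit, stood at 41.2, 46.4, 41 and 41.2 CPM in Idh2 R172K, against 43.3, 43, 40.3 and 45.4 CPM in WT, with a log2 fold change of -0.03 ± 0.06 (SE, edgeR adjusted p = 0.713). With loess offsets Suclg1 became one of the 2 lowered starts (log2 fold change -0.18, adjusted p = 0.0037), the other being Ogdh (-0.13, adjusted p = 0.0162). Among the succinate dehydrogenase genes, the starts of Sdha and Sdhd rose by 0.18 and 0.17, to 28.2 ± 1.84 CPM and 37.2 ± 0.576 CPM in Idh2 R172K, against 25 ± 1.07 CPM and 33.1 ± 1.84 CPM in WT. The Sdhb start was not called, at 49.2 ± 2.88 CPM in Idh2 R172K and 45.7 ± 2.51 CPM in WT (edgeR adjusted p = 0.166). The promoter-class peak of Sdhc, for which no RefSeq window was given, was not called either (0.08, adjusted p = 0.275). The peak over the Mdh2 start rose by 0.31 and that over the Mdh1 start was not called (0.20, adjusted p = 0.0731).

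Among the enzymes that link the cycle with pyruvate, Pck2, the mitochondrial enzyme that converts oxaloacetate to phosphoenolpyruvate, had the largest start-site rise named for a member. Its single peak (chr14:55539980-55541204) held 55.9, 56, 53.8 and 63.2 CPM in Idh2 R172K, against 43.4, 47.9, 43.8 and 47.5 CPM in WT. Every Idh2 R172K library lay above every WT library, and the log2 fold change was 0.32 ± 0.06 (SE, edgeR adjusted p = 3.23e-05). This call held with loess offsets (0.17, adjusted p = 0.00384), as did that of Phgdh (0.12, adjusted p = 0.0434). Phgdh and Psat1 encode the first enzymes of serine synthesis, and PSAT1 is a transaminase that releases 2-oxoglutarate. Under TMM scaling their starts rose by 0.26 and 0.19, with Psat1 at 51.5 ± 3.2 CPM in Idh2 R172K and 44.9 ± 1.51 CPM in WT. The Pcx start held 133 ± 14.5 CPM in Idh2 R172K and 116 ± 3.99 CPM in WT, and its log2 fold change of 0.21 (edgeR adjusted p = 0.0241) turned to -0.03 with loess offsets. The promoter-class peak of Me2, the mitochondrial NAD-dependent malic enzyme, was at 75 ± 5.9 CPM in Idh2 R172K and 62.7 ± 2.26 CPM in WT, a rise of 0.26 whose call was lost with loess offsets (0.08). The start of Dlat, the acetyltransferase subunit of pyruvate dehydrogenase, rose by 0.15. Pdhb, another subunit of that complex, and Me3 were not called at their starts, with 120 ± 11.8 CPM in Idh2 R172K and 106 ± 7.09 CPM in WT for Pdhb, and 6.02 ± 0.785 CPM in Idh2 R172K and 5.33 ± 1.18 CPM in WT for Me3.

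For glutamine itself, the promoter-class peak of Gls2, a glutaminase that releases glutamate, held 40.6, 40.8, 40.8 and 42.8 CPM in Idh2 R172K, against 32.9, 35.2, 27 and 34.2 CPM in WT. The groups did not overlap (log2 fold change 0.34 ± 0.07 SE, edgeR adjusted p = 3.86e-05), and the call held with loess offsets (0.22). The exonic peak of Slc1a5, a glutamine transporter, was at 47 ± 1.76 CPM in Idh2 R172K and 41.4 ± 1.84 CPM in WT, a rise of 0.18. The exonic peak of Gpt, the cytosolic alanine aminotransferase, rose by 0.20. Both calls were lost with library size alone and with loess offsets, and that of Gpt also without WT replicate 3. Glud1, glutamate dehydrogenase, held 103, 96.4, 93.5 and 98.7 CPM at its start in Idh2 R172K, against 79.5, 91.5, 79.5 and 96.4 CPM in WT. These ranges overlap, and the log2 fold change of 0.17 ± 0.07 (SE, edgeR adjusted p = 0.0241) turned to -0.03 with loess offsets. Acly, which splits citrate in the cytosol, stood at 88.7 ± 5.07 CPM at its start in Idh2 R172K and 73.2 ± 2.85 CPM in WT (log2 fold change 0.28, edgeR adjusted p = 0.000308). The starts of the citrate carrier Slc25a1 and the 2-oxoglutarate carrier Slc25a11 rose by 0.23 and 0.20, to 56.6 ± 3.13 CPM and 58.9 ± 3.58 CPM in Idh2 R172K, against 48.4 ± 1.86 CPM and 51.5 ± 3.41 CPM in WT. Among the transaminases the start of Got1, the cytosolic aspartate aminotransferase, was at 66 ± 5.39 CPM in Idh2 R172K and 56.3 ± 1.59 CPM in WT. That of Bcat2 was at 25.1 ± 0.589 CPM in Idh2 R172K and 21.8 ± 1.91 CPM in WT, so they rose by 0.23 and 0.20.

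The peaks, starts included, were also counted by the role of the member. Over all tested peaks 25.1% rose and 27.9% fell. Peaks of the TCA cycle enzymes rose at 35 of 86 and fell at 12 (40.7% and 14%). Of the peaks of the transaminases, which move amino groups between glutamate and other amino acids, 7 of 58 rose and 24 fell (12.1% and 41.4%). Peaks of pyruvate entry and malic enzymes rose at 5 of 30 and fell at 6. Peaks of glutamine uptake, glutaminase and glutamate dehydrogenase rose at 4 of 8, those of carriers and citrate use at 6 of 13, each with 1 fall, and those of serine synthesis rose at 9 of 31 and fell at 6. Peaks of one gene share a locus and are not independent. Of the 35 raised TCA cycle peaks 8 were of Sucla2, 5 of Suclg2 and 4 of Mdh1. Of the 24 lowered transaminase peaks 12 were of Bcat1 and 8 of Got2. Of the others, Gpt2 had 1 raised and 3 lowered of 9 peaks, Got1 2 raised and 1 lowered of 4, Bcat2 2 raised of 4 and Gpt 1 raised of 1. PSAT1 is a transaminase too, but Psat1, with 8 raised and 6 lowered of 24 tested peaks, was counted under serine synthesis. The counts rest on TMM scaling and include starts, and of all start-site peaks 47.2% rose and 9.05% fell. The raised starts of Cs, Fh1, Aco1, Dlst, Dld, Sdha, Sdhd, Sucla2 and Suclg2 lost their calls with cyclic loess offsets. Over all roles 42 of the 66 raised and 41 of the 50 lowered calls were kept with those offsets, and 39 and 50 with library size alone. The difference between roles was not tested.

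**Figure D2:**
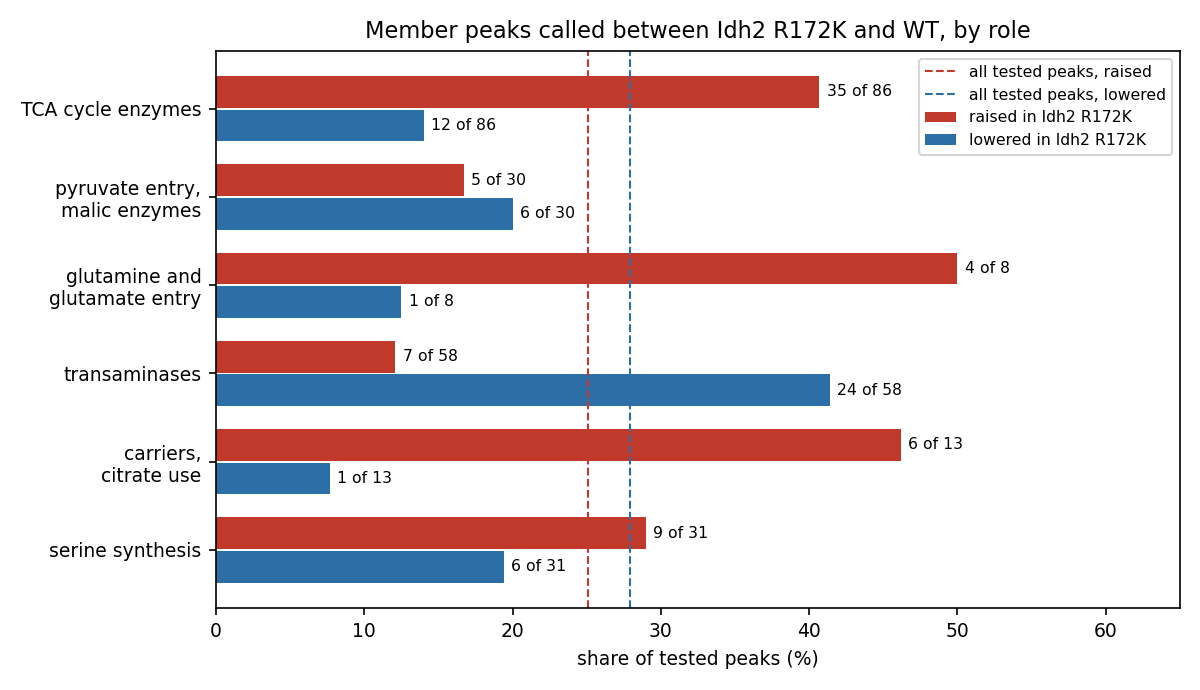
Share of tested member peaks raised (red bars) and lowered (blue bars) in Idh2 R172K against WT for 6 roles, with counts beside the bars. Dashed lines give the shares over all tested peaks, 25.1% raised and 27.9% lowered. The bars include start-site peaks and rest on calls under TMM scaling, many of which at starts were lost with cyclic loess offsets. Of the 24 lowered transaminase peaks 20 lie at Bcat1 and Got2, and Psat1 is counted under serine synthesis.

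The deepest fall was inside Me1, the cytosolic malic enzyme that makes NADPH. Its intronic peak (chr9:86623978-86624639) held 1.08, 1.56, 0.702 and 1.24 CPM in Idh2 R172K, against 6.94, 5.97, 8.8 and 6.15 CPM in WT. The WT libraries were all higher, and the log2 fold change was -2.69 ± 0.19 (SE, edgeR adjusted p = 4.51e-14). The same peak stood at 5.61 ± 0.946 CPM in Idh1 R132H and 6.25 ± 1.06 CPM in Idh2 R140Q, where it was not called. The Me1 start was not called in Idh2 R172K (0.10, adjusted p = 0.454), and the gene had 1 raised and 1 lowered peak of 7.

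Pcx, pyruvate carboxylase, and Me3 also had a deeply lowered intronic peak each. The Pcx peak (chr19:4558463-4558941) was a weak one, with 0.385, 0.292, 0.296 and 0.225 CPM in Idh2 R172K, against 0.797, 1.51, 1.71 and 1.44 CPM in WT (log2 fold change -2.09 ± 0.30 SE, edgeR adjusted p = 2.52e-07). The Me3 peak (chr7:89835453-89836095) held 1.31, 1.66, 1.89 and 1.63 CPM in Idh2 R172K, against 6.52, 6.1, 9.33 and 5.58 CPM in WT (log2 fold change -2.06 ± 0.21 SE, edgeR adjusted p = 9.93e-09). Neither pair of groups overlapped. Me3 lies on the chromosome of the targeted gene, 9.51 Mb from Idh2, and the part of the linked chromosome segment was not tested. In Idh2 R140Q, which is targeted at the same gene, the Me3 peak held 8.75 ± 0.697 CPM and was not called.

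Bcat1, the cytosolic transaminase that moves the amino group of branched-chain amino acids to 2-oxoglutarate, had 24 peaks, of which 12 fell and 0 rose in Idh2 R172K. The lowered peaks were spread from the gene's upstream side to its far side, with log2 fold changes of -0.42 to -1.93, and its start did not pass the test (0.21, adjusted p = 0.11), nor did its highest promoter-class peak (0.14, adjusted p = 0.448). The strongest test was at an intronic peak (chr6:145002119-145002968) with 6, 7.5, 6.32 and 6.25 CPM in Idh2 R172K, against 16.7, 14.6, 14.6 and 15.5 CPM in WT. The groups were far apart (log2 fold change -1.27 ± 0.09 SE, edgeR adjusted p = 3.14e-15). At a peak 76.5 kb from the gene (chr6:144916960-144917610) Idh2 R172K held 3.3 ± 0.505 CPM and WT 8.87 ± 0.751 CPM. The intronic peak nearest downstream of the start (chr6:145069076-145070482) held 2.73, 3.99, 3.07 and 2.14 CPM in Idh2 R172K, against 10.7, 7.69, 9.26 and 7.06 CPM in WT. That is a log2 fold change of -1.58 ± 0.21 (SE, edgeR adjusted p = 1.47e-06). Bcat2, the mitochondrial form, had 4 peaks, of which 2 rose and 0 fell.

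Got2, the mitochondrial aspartate aminotransferase, had 8 lowered and 1 raised of 16 peaks, but 5 of the lowered ones lay 607 to 1420 kb from the gene, with no nearer protein-coding gene. Nearer by, a peak 18.5 kb away (chr8:95906537-95907231) held 1.38, 1.75, 1.29 and 1.13 CPM in Idh2 R172K, against 3.72, 4.3, 3.75 and 4.31 CPM in WT (log2 fold change -1.57 ± 0.16 SE, edgeR adjusted p = 1.3e-10). The groups did not overlap. Its start was not called, at 35.6 ± 0.912 CPM in Idh2 R172K and 34.7 ± 2.21 CPM in WT (edgeR adjusted p = 0.693). Gpt2, the mitochondrial alanine aminotransferase, had a strong peak 10.5 kb away (chr8:85481729-85482504) with 17 ± 0.841 CPM in Idh2 R172K and 27 ± 1.17 CPM in WT. Its log2 fold change was -0.68 ± 0.07 (SE, edgeR adjusted p = 3.23e-10). Gpt2 also held the 1 lowered promoter-class peak of the members, a second one inside the gene (log2 fold change -0.59, adjusted p = 0.00343), while the peak over its start was not called (0.10, adjusted p = 0.197).

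**Figure D3:**
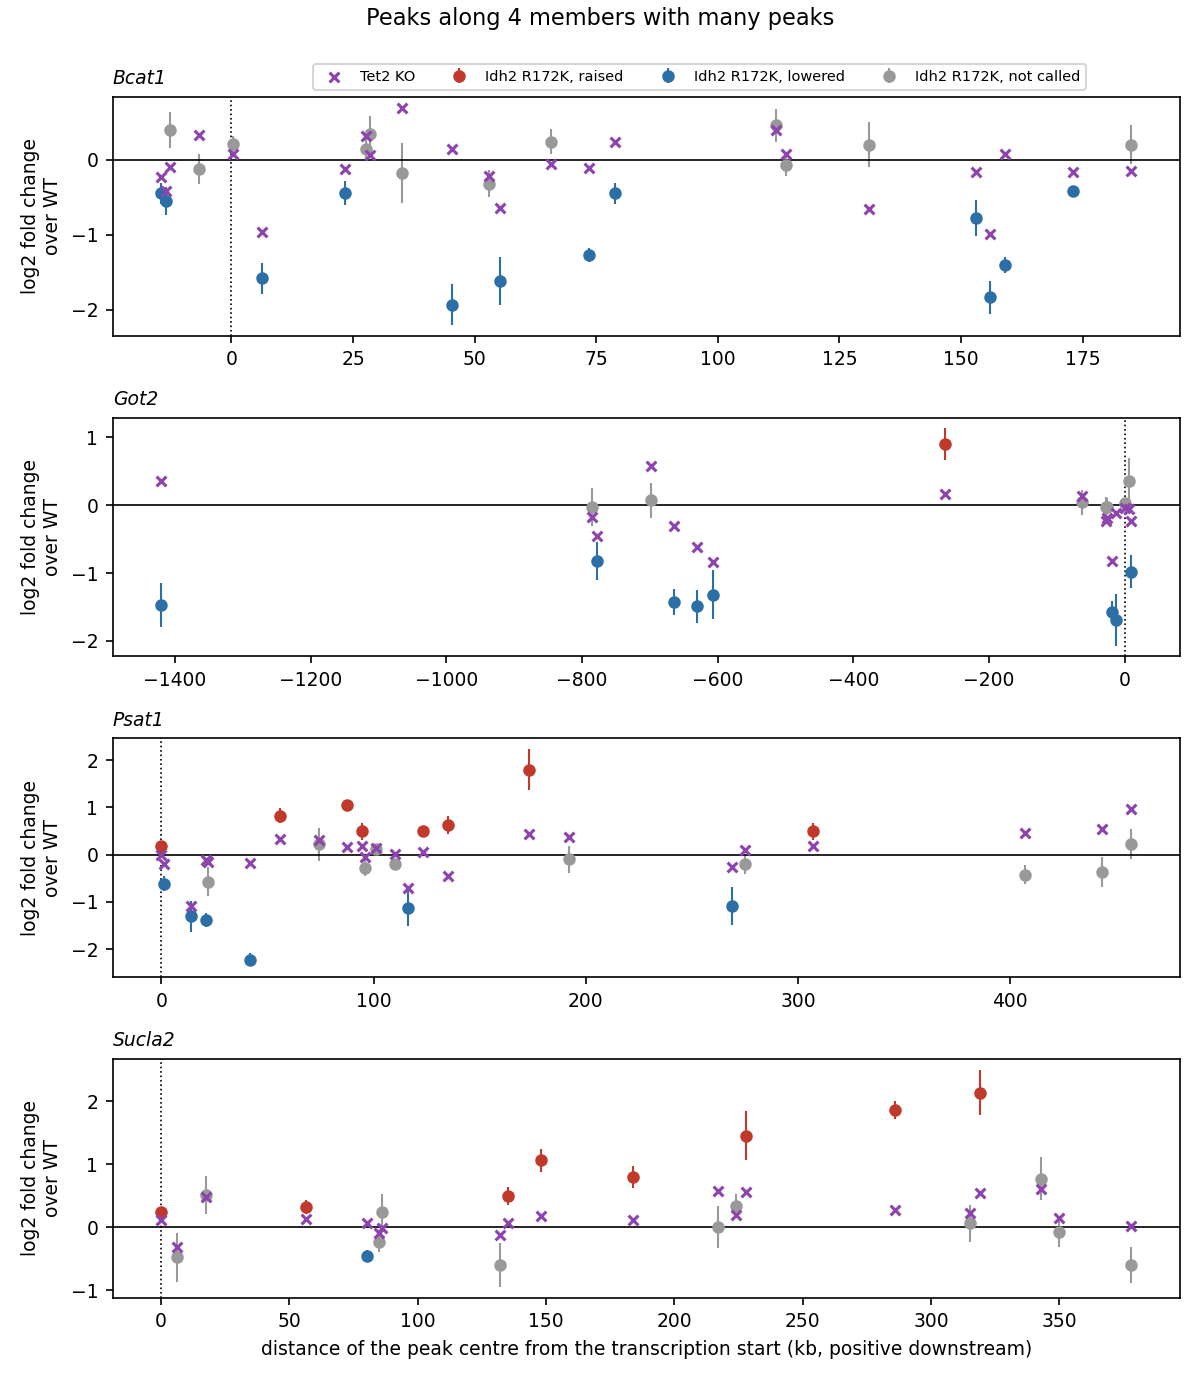
Log2 fold change over WT of each tested peak of Bcat1, Got2, Psat1 and Sucla2 against the distance of its centre from the transcription start, for Idh2 R172K (circles with SE, coloured by call) and Tet2 KO (crosses). The blue circles of Bcat1 lie along the whole locus, those of Psat1 include the 3 peaks nearest downstream of its start, and the red circles of Sucla2 reach 319 kb.

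Psat1 had peaks in both directions, 8 raised and 6 lowered of 24 tested. The lowered ones included both intronic peaks and a peak 0.871 kb past the end of the gene, at 2.9 ± 0.887 CPM in Idh2 R172K and 7.12 ± 0.608 CPM in WT. A peak 21.9 kb away (chr19:15882874-15883573) had the smallest p of all member peaks. It held 1.58, 1.27, 1.48 and 1.52 CPM in Idh2 R172K, against 5.92, 6.47, 7.03 and 8.49 CPM in WT (log2 fold change -2.22 ± 0.14 SE, edgeR adjusted p = 1.37e-16). Every WT library was above every Idh2 R172K library by a wide margin. A peak further out, 67.7 kb from the gene (chr19:15836641-15838197), moved the other way. It held 47.5, 35, 43.9 and 46.6 CPM in Idh2 R172K, against 24, 18.1, 22.6 and 19.3 CPM in WT (log2 fold change 1.06 ± 0.10 SE, edgeR adjusted p = 3.07e-10). Among the member peaks outside starts it was the strongest raised one by level in Idh2 R172K with a log2 fold change over 1. Weaker rises stood 103 kb away, at 17.9 ± 0.762 CPM in Idh2 R172K and 12.7 ± 0.508 CPM in WT, and 35.8 kb away, at 3.34 ± 0.582 CPM in Idh2 R172K and 1.85 ± 0.246 CPM in WT.

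Sucla2 had 8 raised and 1 lowered of 20 tested peaks. The peak with the smallest p among all raised member peaks lay 243 kb from it (chr14:73838748-73839336) and held 9.23, 6.43, 8.06 and 9.85 CPM in Idh2 R172K, against 2.05, 2.29, 2.56 and 2.58 CPM in WT. The groups did not overlap, and the log2 fold change was 1.86 ± 0.14 (SE, edgeR adjusted p = 3.89e-14). Other raised peaks lay 276 kb away, at 1.05 ± 0.169 CPM in Idh2 R172K and 0.21 ± 0.144 CPM in WT, and 104 kb away, at 2.78 ± 0.452 CPM in Idh2 R172K and 1.36 ± 0.305 CPM in WT. Suclg2 had an intronic peak (chr6:95552214-95553017) with 14.4, 14.2, 14.1 and 16 CPM in Idh2 R172K, against 8.04, 8.72, 8.08 and 8.2 CPM in WT (log2 fold change 0.83 ± 0.09 SE, edgeR adjusted p = 2.08e-10). A weak peak 156 kb from Suclg2 also rose, at 0.966 ± 0.226 CPM in Idh2 R172K and 0.137 ± 0.0896 CPM in WT (log2 fold change 2.74 ± 0.46 SE, edgeR adjusted p = 3.34e-06). The promoter-class peak given to Suclg2 by the rule lay 138 kb from it and was not called, at 21.1 ± 1.42 CPM in Idh2 R172K and 21.4 ± 1.68 CPM in WT.

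Inside Suclg1 the peaks moved in opposite directions while its start did not pass the test. The exonic peak (chr6:73254555-73255431) held 6.23, 5.94, 6.84 and 6.03 CPM in Idh2 R172K, against 12.5, 11.8, 15.4 and 14.1 CPM in WT (log2 fold change -1.08 ± 0.11 SE, edgeR adjusted p = 2.27e-11). The peak at its transcription end (chr6:73264243-73264957) held 2.92, 2.63, 3.07 and 3.43 CPM in Idh2 R172K, against 1.37, 0.9, 1.91 and 1.19 CPM in WT (log2 fold change 1.23 ± 0.18 SE, edgeR adjusted p = 4.01e-07). Neither pair of groups overlapped. Dlst showed a like split between its raised start and a lowered intronic peak (chr12:85122899-85123896), which stood at 3.68 ± 0.614 CPM in Idh2 R172K and 9.36 ± 1 CPM in WT (log2 fold change -1.37 ± 0.12 SE, edgeR adjusted p = 1.02e-12). An exonic Sdhb peak at 0.93 ± 0.288 CPM in Idh2 R172K and 3.16 ± 0.485 CPM in WT fell by 1.67 on the log2 scale. An intronic Ogdh peak at 0.539 ± 0.296 CPM in Idh2 R172K and 2.01 ± 0.127 CPM in WT fell by 1.82.

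Mdh1, the cytosolic malate dehydrogenase, had 4 raised and 1 lowered of 7 peaks. A peak 47.8 kb away (chr11:21508606-21509152) held 9.66, 6.43, 8.13 and 9.8 CPM in Idh2 R172K, against 3.83, 3.19, 3.68 and 4.18 CPM in WT (log2 fold change 1.22 ± 0.14 SE, edgeR adjusted p = 8.31e-10). The groups did not overlap. A peak 4.4 kb from the gene stood at 10.3 ± 0.826 CPM in Idh2 R172K and 5.78 ± 1.22 CPM in WT, and one 49.4 kb away at 9.04 ± 0.848 CPM in Idh2 R172K and 5.31 ± 0.619 CPM in WT. Aco1 had a weak intronic peak at 1.62 ± 0.216 CPM in Idh2 R172K and 0.57 ± 0.204 CPM in WT (log2 fold change 1.49, adjusted p = 6.78e-06). All 5 peaks of Cs and all 6 of Acly had log2 fold changes above 0 in Idh2 R172K, with 4 and 3 of them called. Of these calls only those at the Cs transcription end and at an intronic Acly peak (chr11:100491049-100491374) were kept in all 16 alternatives, the Xist splits left aside. Another intronic Acly call (chr11:100512327-100512776) was kept in 7 of 16.

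**Figure D4:**
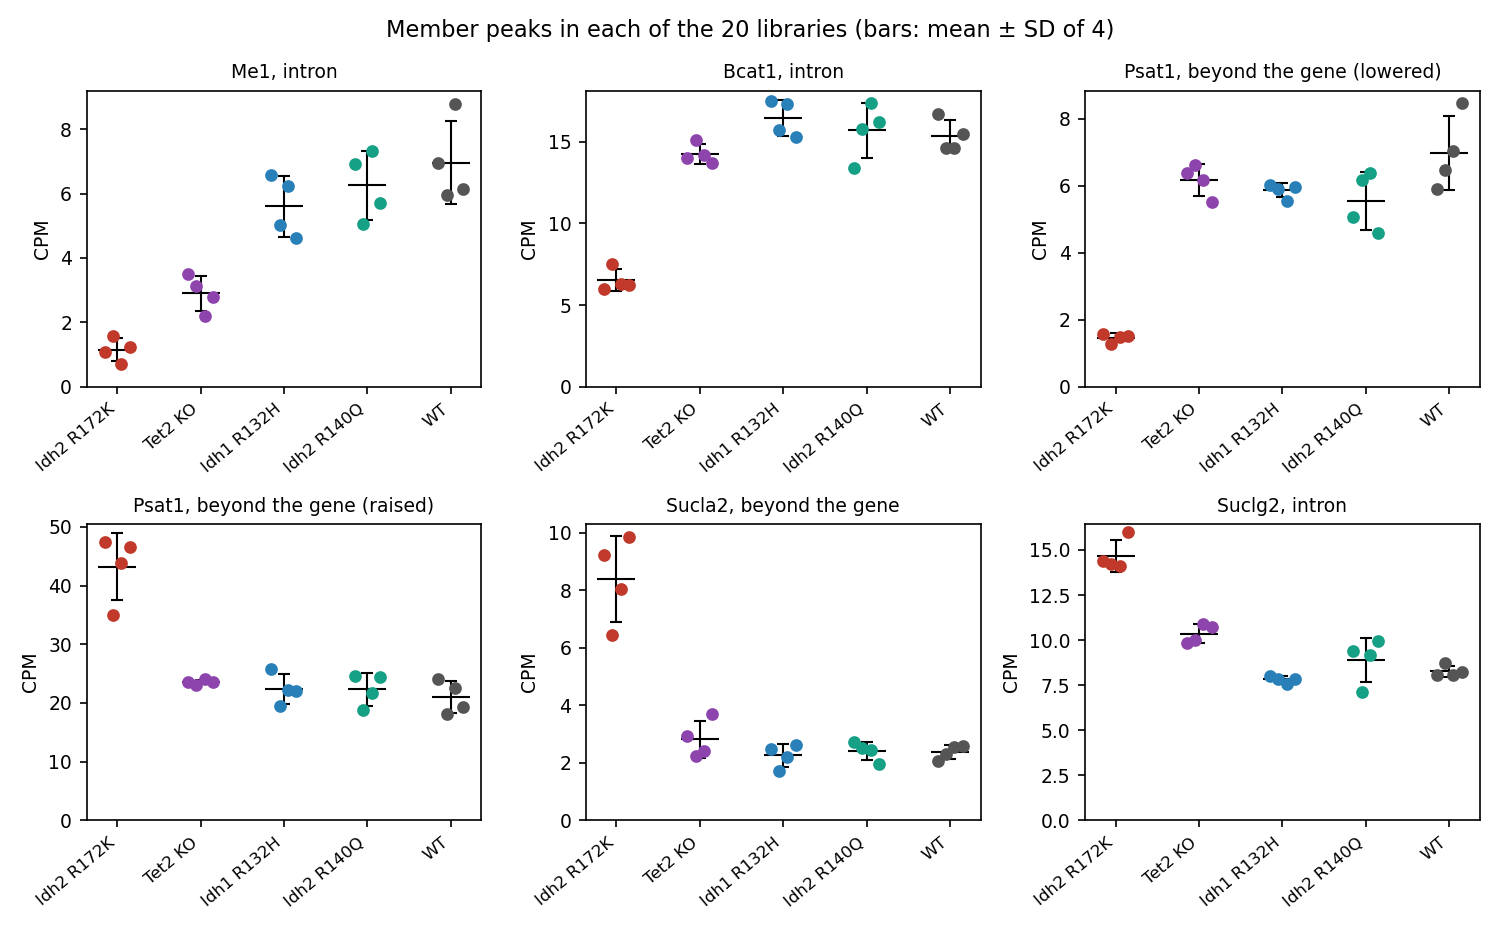
CPM of 6 member peaks in each library of the 5 genotypes, with black bars for mean ± SD of 4 libraries. The Idh2 R172K points lie below all others in the 3 upper panels and above all others in the 3 lower panels, and the Tet2 KO points lie apart from WT at the Me1 and Suclg2 peaks.

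In Tet2 KO few member peaks changed. Of 226 peaks 2 rose and 6 fell (0.885% and 2.65%, against 0.785% and 2.32% of all tested peaks). The libraries did not overlap at 16 peaks, where the share over all tested peaks was 8.58%. Of the promoter-class peaks 0 of 29 were called in edgeR and DESeq2 (1.89% of all promoter-class peaks), with 3 at an unadjusted p under 0.05. Of the start-site peaks 0 of 29 were called in edgeR (1.23% of all start-site peaks), with 0 at that unadjusted p. Within the Xist-low libraries alone 5 promoter-class peaks rose in Tet2 KO and 0 fell, and within the Xist-high libraries 0 rose and 1 fell. Over all 124394 peaks tested in the Xist-low set 2279 rose and 1356 fell in Tet2 KO. Over all 123572 in the Xist-high set 469 rose and 2258 fell, so the direction over all peaks also differed between the sets. Tet2 KO start-site fold changes ran from -0.07 to 0.24 on the log2 scale.

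The 6 peaks lowered in Tet2 KO lay at Me1, Got2, Bcat1, Pcx and Psat1, with Bcat1 holding 2 of them. The Idh2 R172K comparison shares the WT libraries, so its values are given beside them only as values. The Me1 intronic peak held 3.5, 3.12, 2.2 and 2.78 CPM in Tet2 KO, against 6.94, 5.97, 8.8 and 6.15 CPM in WT (log2 fold change -1.26 ± 0.15 SE, edgeR adjusted p = 2.09e-06). The groups did not overlap. The Got2 peak 18.5 kb from the gene held 1.91, 2.34, 2.16 and 2.63 CPM in Tet2 KO, against 3.72, 4.3, 3.75 and 4.31 CPM in WT (log2 fold change -0.83 ± 0.14 SE, edgeR adjusted p = 0.000335). At Bcat1, the intronic peak downstream of the start stood at 4.5 ± 0.916 CPM in Tet2 KO and 8.69 ± 1.65 CPM in WT, and a peak 73.9 kb away at 0.884 ± 0.0748 CPM in Tet2 KO and 1.76 ± 0.117 CPM in WT. Their log2 fold changes were -0.96 (edgeR adjusted p = 0.00474) and -0.99 (adjusted p = 0.000895), and the second held 0.484 ± 0.0812 CPM in Idh2 R172K. The Pcx intronic peak was at 0.563 ± 0.182 CPM in Tet2 KO and 1.36 ± 0.395 CPM in WT (adjusted p = 0.00292), and an intronic Psat1 peak at 0.413 ± 0.112 CPM in Tet2 KO and 0.869 ± 0.36 CPM in WT (adjusted p = 0.0405). The Psat1 call was kept in 9 of 16 alternatives, the Xist splits left aside, and was lost without Tet2 KO replicate 2, 3 or 4 or without WT replicate 2 or 4, as well as with cyclic loess offsets and with DESeq2, while the other 5 were kept in all 16.

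The raised peaks in Tet2 KO were the Suclg2 intronic peak and a weak Psat1 peak 437 kb from the gene, which stood at 1.23 ± 0.164 CPM in Tet2 KO and 0.634 ± 0.0545 CPM in WT. The Suclg2 peak held 9.85, 9.99, 10.9 and 10.7 CPM in Tet2 KO, against 8.04, 8.72, 8.08 and 8.2 CPM in WT (log2 fold change 0.32 ± 0.09 SE, edgeR adjusted p = 0.0319). Both calls stand close to the threshold and were lost without single libraries, when 0 to 1 member peaks rose in Tet2 KO. The Suclg2 call was lost without Tet2 KO replicate 3 or 4 or without WT replicate 1, 3 or 4, and the Psat1 call without any one library of either genotype and with DESeq2.

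In Idh1 R132H and Idh2 R140Q no member peak passed the test. Of 226 peaks 0 were called in each (0.0274% and 0.0153% of all tested peaks), also with DESeq2, with 12 and 13 at an unadjusted p under 0.05. In the edgeR fit, which did not pair same-numbered libraries, the smallest adjusted p values were 0.625 and 0.783. The first was that of the Glud1 start, at 94, 95.7, 96.7 and 114 CPM in Idh1 R132H, against 79.5, 91.5, 79.5 and 96.4 CPM in WT, ranges that overlap. The second was the Psat1 peak 21.9 kb from the gene, at 5.56 ± 0.865 CPM in Idh2 R140Q and 6.98 ± 1.11 CPM in WT. Log2 fold changes at start sites ran from -0.05 to 0.21 in Idh1 R132H and from -0.04 to 0.18 in Idh2 R140Q. With the replicate number as a block the calls over all peaks numbered 96 in Idh1 R132H and 36 in Idh2 R140Q, against 34 and 19 without it, and the member calls stayed at 0.

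Set directly against the other mutants, Idh2 R172K differed at about as many member peaks as against WT. Against Idh2 R140Q 60 were higher and 43 lower (21.5% and 25.5% of all tested peaks), against Idh1 R132H 58 and 48 (23.3% and 26.7%), and against Tet2 KO 56 and 45 (20.1% and 24.1%). Of the 29 start-site peaks 16 were higher than in Idh2 R140Q, 14 than in Idh1 R132H and 16 than in Tet2 KO, where 37.6%, 35.1% and 37.9% of all start-site peaks were higher. These comparisons share the Idh2 R172K libraries. At the Me1 intronic peak, chosen for its deep fall, the means were 1.14 CPM in Idh2 R172K and 2.9 CPM in Tet2 KO. They were 5.61 CPM in Idh1 R132H, 6.25 CPM in Idh2 R140Q and 6.97 CPM in WT, where the last 3 overlap in their libraries. Not all lowered peaks had this order: the Bcat1 peak 76.5 kb from the gene held 9.29 CPM in Tet2 KO and 8.87 CPM in WT.

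The other genes of these pathways were read from a list of 54 genes, of which 53 had a peak. Of their 355 tested peaks 80 rose and 108 fell in Idh2 R172K (22.5% and 30.4%, against 25.1% and 27.9% of all tested peaks). In Tet2 KO 2 rose and 13 fell (0.563% and 3.66%, against 0.785% and 2.32%). These shares lay near those of the whole set. In Idh1 R132H and in Idh2 R140Q 0 were called (0.0274% and 0.0153% of all tested peaks), with 14 and 22 at an unadjusted p under 0.05. By role, the transaminases of this list had 24 raised and 16 lowered of 61 peaks in Idh2 R172K (39.3% and 26.2%). The transaminase members, counted without Psat1, had 12.1% and 41.4%. The list's glutamine uptake, glutaminase and glutamate dehydrogenase genes had 17 raised and 44 lowered of 138 (12.3% and 31.9%). The members of that role had 4 raised and 1 lowered of 8. In the list, TCA cycle enzymes had 5 raised and 5 lowered of 19, and pyruvate and malic enzymes 15 and 22 of 66. The list's carriers had 16 and 21 of 64, and its serine synthesis genes 3 and 0 of 7. These differences between roles were not tested. The smallest p among the lowered ones in Idh2 R172K was at an intronic peak of Slc38a1, a glutamine transporter, at 1.59 ± 0.713 CPM in Idh2 R172K and 18 ± 1.71 CPM in WT (log2 fold change -3.64 ± 0.14 SE, edgeR adjusted p = 2.24e-21). A peak 44 kb from Glul, glutamine synthetase, stood at 1.31 ± 0.149 CPM in Idh2 R172K and 9.79 ± 0.95 CPM in WT. Raised peaks with the smallest p lay 11.1 kb from Sdhaf1, an assembly factor of succinate dehydrogenase, at 14.4 ± 1.91 CPM in Idh2 R172K and 7.15 ± 1.15 CPM in WT, and 45.3 kb from Pdhx, a pyruvate dehydrogenase subunit, at 20.9 ± 1.46 CPM in Idh2 R172K and 12.6 ± 1.59 CPM in WT. In Tet2 KO the start-site peak of Pdk4, a kinase that inhibits pyruvate dehydrogenase, rose to 9.2 ± 0.335 CPM, against 6.8 ± 0.46 CPM in WT (edgeR adjusted p = 0.00719), and a peak near Slc7a11, the cystine and glutamate exchanger, to 2.34 ± 0.353 CPM in Tet2 KO, against 1.56 ± 0.26 CPM in WT. Intronic peaks of Dbt and Slc25a13 fell in Tet2 KO by 1.75 and 0.59 on the log2 scale. DBT is a subunit of the branched-chain keto acid dehydrogenase, and SLC25A13 exchanges aspartate for glutamate across the mitochondrial membrane.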

How the data were processed

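The authors deposited whole-number counts of reads per consensus peak for 20 libraries, with peak intervals and classes. The build was mm10, and the tools listed are featureCounts, MACS2, SAMtools, Picard, BWA and Trim Galore, without versions or roles, per the submitters' processing notes. Peaks were given to genes by RefSeq coordinates. Members and gene lists were chosen with earlier results of these data known.

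The deposited counts of all 20 libraries entered 1 robust quasi-likelihood fit (edgeR 4.0.16 under R 4.3.3) with TMM scaling, after filterByExpr removed 1435 peaks. CPM used TMM-scaled library sizes. All 7 comparisons were adjusted by Benjamini-Hochberg over all tested peaks, with a threshold of 0.05. Cyclic loess offsets used limma 3.58.1 with a pseudocount of 0.5, and DESeq2 1.42.0 was an alternative test. The fit was tested on simulated counts in which few peaks changed, equally in both directions. That check could not test the scaling where many peaks change, as in Idh2 R172K.

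Printed with values were each member's highest promoter-class peak, the 15 raised and 15 lowered peaks with the smallest p in Idh2 R172K, and all peaks called in the other genotypes; start-site peaks, and other peaks named beside them, were added after their values were seen. Same-numbered libraries deviated together for Idh1 R132H and WT (correlations of 0.116 to 0.269) and for Idh2 R140Q and WT (0.133 to 0.311). The correlations were -0.06 to 0.152 for Idh2 R172K, a range that overlaps these, and 0.027 to 0.098 for Tet2 KO. The main fit did not pair libraries in any comparison, and the replicate number entered as a block only in an alternative. The numbering also follows the Xist sets. Replicates 1 and 3 were Xist-low in every genotype but Tet2 KO, where replicates 1 and 2 were. The closest replicate pair, Tet2 KO replicates 3 and 4, had a mean chi-square of 1.16 per peak, where sampling noise alone gives about 1. Whether this pair came from different mice was not tested.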

Additional observations from a re-analysis of the deposited data

Results flagged for a closer look

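Of 110 groups of 4 libraries at 22 peaks, 4 held a library far from the other 3, and chance gives about 1 in 20 groups. The Gls2 promoter peak held 42.8 CPM in Idh2 R172K replicate 4, beside 40.6 to 40.8 CPM in the other libraries of that genotype. The Glud1 start held 114 CPM in Idh1 R132H replicate 4, beside 94 to 96.7 CPM. The Suclg1 start held 46.4 CPM in Idh2 R172K replicate 2, the shallowest library, beside 41 to 41.2 CPM. The Suclg2 intronic peak held 16 CPM in Idh2 R172K replicate 4, beside 14.1 to 14.4 CPM.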

How the results depend on the processing

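The scaling moved the start-site and promoter-class counts most. In Idh2 R172K against WT, cyclic loess offsets gave 1 raised and 3 lowered promoter-class peaks, against 13 and 1, and 2 raised and 2 lowered start-site peaks, against 20 and 0, and turned the Glud1 and Pcx starts to -0.03 each. Library size alone gave 5 raised promoter-class, 9 raised start-site and 34 raised other peaks, the last against 53. Over all tested peaks it gave 23277 raised, against 31075. The cause was not tested. Within the Xist-high libraries, a split chosen after seeing the data that leaves 2 libraries a genotype, 7 promoter-class, 9 start-site and 30 other peaks rose and 0 promoter-class peaks fell. The same set gave 55 calls against Idh2 R140Q, 57 against Idh1 R132H and 64 against Tet2 KO, where all libraries gave 103, 106 and 101. For Tet2 KO against WT the Xist-low set gave 5 raised and the Xist-high set 1 lowered promoter-class peak, against 0 and 0, and the Xist-high set 0 raised other peaks, against 2. Counting only peaks in a gene or within 10 kb, which leaves fewer peaks, gave 34 raised and 26 lowered other peaks (53 and 49), 1 raised in Tet2 KO, and 63, 65 and 62 calls against Idh2 R140Q, Idh1 R132H and Tet2 KO. DESeq2 gave 1 raised other peak in Tet2 KO.

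Without single libraries, in Idh2 R172K 10 to 13 promoter-class peaks rose and 1 fell, 44 to 54 other peaks rose and 45 to 51 fell, and 17 to 20 start-site peaks rose and 0 fell. In Tet2 KO 0 to 1 other peaks rose and 5 to 8 fell, with 0 promoter-class calls, and Idh1 R132H and Idh2 R140Q stayed at 0. Against Idh2 R140Q 90 to 106, against Idh1 R132H 86 to 108 and against Tet2 KO 87 to 104 peaks were called. With the replicate number as a block, 14 promoter-class peaks rose and 1 fell in Idh2 R172K. There 54 other peaks rose and 51 fell, and 20 start-site peaks rose. In Tet2 KO 3 other peaks rose and 8 fell with the block. Over all tested peaks the block gave 32635 raised and 35826 lowered in Idh2 R172K, against 31075 and 34598 without it. For Tet2 KO it gave 1892 and 4742, against 973 and 2871. At Tet2 KO replicates 2 and 3 the block joined libraries of different Xist sets. Idh2 R172K then differed at 111, 109 and 109 member peaks from Idh2 R140Q, Idh1 R132H and Tet2 KO. The member calls of Idh1 R132H and Idh2 R140Q against WT stayed at 0. In Idh2 R172K 26 of 66 raised and 37 of 50 lowered peaks were kept in every alternative but the Xist splits. The start-site set was defined after seeing the data, and peaks under about 1 CPM rest on few reads.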
